A study of Homo sapiens with 23 samples.

Results

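The aminoacyl tRNA synthetase genes were taken by symbol as the protein-coding genes named for an amino acid followed by ARS, ARS1 or ARS2, with FARSA, FARSB and EPRS1 included and the scaffold genes AIMP1, AIMP2 and EEF1E1 added. The rule used no measured value, and 38 of its genes, of the 58592 that were summed, are described here. They comprised 17 cytosolic enzymes or subunits, 16 mitochondrial enzymes, GARS1 and KARS1, which serve both compartments, and the 3 scaffolds. All 38 passed the filter on low counts.

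A synthetase joins an amino acid to its matching tRNA, the charging step that feeds every ribosome. Cytosol and mitochondrion charge separate tRNA pools, mostly with enzymes from separate nuclear genes (suffix 1 and suffix 2), while GARS1 and KARS1 make both forms from a single gene. In animal cells a subset of the cytosolic enzymes is held with AIMP1, AIMP2 and EEF1E1 in the multi-synthetase complex. Many cytosolic synthetase genes are known targets of ATF4, the transcription factor of the amino acid and integrated stress responses.

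RNA was measured in SUDHL5 cells, an established diffuse large B cell lymphoma line (DLBCL in the labels), in 23 poly(A) libraries. CDK-TCIP1 is a bivalent compound that joins a ligand of the BCL6 repressor to a ligand of transcriptional kinases. Cells received CDK-TCIP1 for 2 h at 10 nM (2 libraries), 30 nM (4) or 100 nM (3), or for 4 h at 30 nM (3). The control compounds labelled Neg1 and Neg2 were given at 30 nM for 2 h or 4 h (2 libraries each), and 3 libraries held cells with DMSO for 4 h. Every culture had 0.1% DMSO, and vehicle was sampled at 4 h alone, so the 2 h groups were set against Neg1 and Neg2 at 2 h. All data come from 1 line. Nothing in the labels ties the replicates to separate cultures, and the p-values then reflect only the spread between these libraries, which may be technical.

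Library totals ran from 17396484 to 26373153 estimated counts. In CPM without TMM scaling, the 8 B cell markers summed to between 2305 and 3009 CPM in every library, while the 14 markers of other cell types summed to between 8.24 and 15.0 CPM, with the globin gene HBB at 0 in all 23 libraries. The B cell sum was 2305 to 2456 CPM with 30 nM CDK-TCIP1 at 4 h, against 2764 to 2875 CPM with DMSO, and 5 of the 8 markers fell. In that comparison 19.3% of all genes tested fell and 17.5% rose. Among protein-coding genes with a mean log2 CPM of 3 or more, 32% fell and 22.2% rose. The sum of the other markers was 8.24 to 15.0 CPM with 30 nM CDK-TCIP1 at 4 h, against 10.6 to 13.0 CPM with DMSO, and of the 14, 6 passed the filter on low counts and 1 of these was called (ALAS2, higher). The part of either list in the results was not tested. Replicate 1 of 100 nM lay farthest from its group mean, with a median absolute deviation of 0.092 (log2), beside 0.0591 and 0.0806 for replicates 2 and 3. Replicate 1 of Neg2 at 2 h had been set apart in an earlier analysis of these data. In a group of 2 this measure cannot single out a library, and both Neg2 libraries at 2 h had 0.0631. Member counts without replicate 1 of 100 nM and replicate 1 of Neg2 at 2 h (the 2 libraries that stand apart) are given beside the results. So are the named calls that then change.

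Stretches of the start regions are shown first, because the letters TGATGNAA, the form bound by ATF4 with a C/EBP partner, stood in a larger share of these start regions than of all genes' start regions. RefSeq windows (GRCh38.p14) of 250 bases before to 50 bases after a gene's start were held for 33 of the 38 genes. TGATGNAA, on either strand, was in the window of 8 of these 33 genes (24.2%), against 1217 of all 27305 genes with a window (4.46%). By class it was in 6 of 14 cytosolic genes (42.9%) and 1 of 14 mitochondrial genes (7.14%), and in GARS1. The E-box CACGTG, bound by MYC among others, was in 5 of 33 (15.2%), against 8.77% of all genes. A match describes letters in a window and is not a measured binding site. The 8 matches are given with 11 bases on each side, read 5′ to 3′ on the gene's strand, with the match in capitals (TTGCATCA and TTTCATCA are the motif on the other strand):
AARS1, chr16:70289675-70289704, minus strand: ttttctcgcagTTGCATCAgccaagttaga
CARS1, chr11:3057407-3057436, minus strand: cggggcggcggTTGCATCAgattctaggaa
IARS1, chr9:92293692-92293721, minus strand: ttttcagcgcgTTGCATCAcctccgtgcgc
MARS1, chr12:57488053-57488082, plus strand: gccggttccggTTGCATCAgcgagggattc
NARS1, chr18:57621804-57621833, minus strand: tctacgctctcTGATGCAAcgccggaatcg
TARS1, chr5:33440956-33440985, plus strand: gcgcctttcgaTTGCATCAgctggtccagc
GARS1, chr7:30594834-30594863, plus strand: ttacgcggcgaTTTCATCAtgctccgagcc
YARS2, chr12:32756076-32756105, minus strand: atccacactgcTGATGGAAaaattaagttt
The match lay within 33 bases of the start in IARS1, CARS1, MARS1, TARS1, NARS1 and GARS1, and 187 and 197 bases before it in AARS1 and YARS2.

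The mitochondrial genes MARS2 and YARS2 were the only members whose response to CDK-TCIP1 was called higher at 4 h than at 2 h, and their 250 bases before the start are shown for that reason. In MARS2 the capitals mark a CACGTG that begins 11 bases before the start. In YARS2 they mark TGATGGAA.
MARS2, chr2:197705119-197705368, plus strand: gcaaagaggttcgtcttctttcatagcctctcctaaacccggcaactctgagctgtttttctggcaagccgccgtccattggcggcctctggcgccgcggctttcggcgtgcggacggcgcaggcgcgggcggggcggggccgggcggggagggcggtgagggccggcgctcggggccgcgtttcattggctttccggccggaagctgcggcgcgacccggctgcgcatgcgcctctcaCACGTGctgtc
YARS2, chr12:32755898-32756147, minus strand: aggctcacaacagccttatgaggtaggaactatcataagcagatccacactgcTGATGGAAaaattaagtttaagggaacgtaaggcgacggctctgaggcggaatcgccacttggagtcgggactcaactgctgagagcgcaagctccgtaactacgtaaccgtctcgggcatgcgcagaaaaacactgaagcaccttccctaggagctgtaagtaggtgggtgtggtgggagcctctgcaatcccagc

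Without CDK-TCIP1, mRNAs of the cytosolic enzymes were more abundant than those of the mitochondrial ones. In DMSO, on the deposited TPM scale, which is per length, the median over genes was 19.3 TPM for the 16 mitochondrial genes (range 4.76 to 62.5) and 99.4 TPM for the 17 cytosolic genes (range 22.5 to 183). GARS1, the glycyl enzyme of both compartments, was highest at 266 ± 14.7 TPM (SD, n = 3), and PARS2, the mitochondrial prolyl enzyme, lowest at 4.76 ± 0.753 TPM. QARS1 followed GARS1 at 183 ± 6.88 TPM, and KARS1 at 172 ± 6.86 TPM differed from QARS1 by less than the sum of their SDs. Transcripts not annotated as protein-coding made up 36.3 ± 2.61% of that QARS1 level and 2.54 ± 0.244% of that of KARS1. The main protein-coding transcript had 105, 103 and 96.6 TPM for QARS1, against 157, 145.5 and 149 TPM for KARS1. FARSB, a subunit of the cytosolic phenylalanyl enzyme, stood at 22.5 ± 0.279 TPM among the mitochondrial genes, while its partner subunit FARSA was at 108 ± 3.23 TPM.

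**Figure D1:**
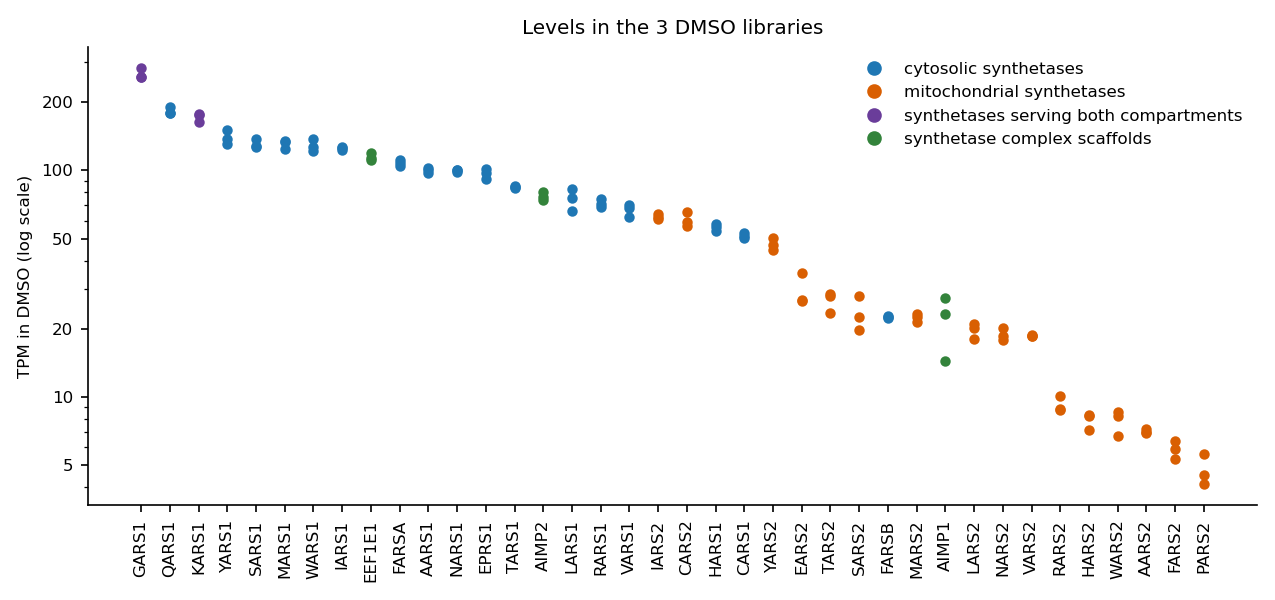
Levels of the 38 genes in the 3 DMSO libraries, in deposited TPM on a log axis; each point is a library and colours give the class. GARS1 is at the top (266 TPM) and PARS2 at the bottom (4.76 TPM), and IARS2 (62.5 TPM) is the highest mitochondrial enzyme.

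Against DMSO at 4 h, no member was called with Neg1 or with Neg2, by edgeR or by DESeq2, where 0% of the 17743 genes tested were called by edgeR. At an unadjusted p under 0.05 there were 0 members with Neg1 and 0 with Neg2, and 770 and 1063 of all genes. Member fold changes ran from -0.11 to 0.20 on the log2 scale with Neg1 and from -0.20 to 0.18 with Neg2. Between 4 h and 2 h of the control compounds no member was called by either tool, and 3 members (YARS1, AARS2 and AIMP1) and 1394 of all genes had an unadjusted p under 0.05.

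At 4 h of 30 nM CDK-TCIP1 many of the enzyme mRNAs were lower by modest amounts and a few were higher. Against DMSO, 20 of the 38 genes fell and 5 rose, by edgeR's quasi-likelihood test at an adjusted p under 0.05. Over all genes tested 19.3% fell and 17.5% rose. Since the family is well expressed, a nearer background is the 8656 well-expressed protein-coding genes (mean log2 CPM 3 or more), of which 32% fell and 22.2% rose. In bulk RNA, fewer cells of a kind and less RNA per cell cannot be told apart. The median member changed by -0.21 on the log2 scale, beside 0.03 over all genes tested. Against Neg1 and Neg2 at 4 h, 19 members fell and 6 rose (background 19.7% and 18.5% of all genes, 31.9% and 23.2% of the well-expressed protein-coding genes). Without the 2 libraries that stand apart, which belong to neither 4 h comparison but share its estimate of spread, 23 fell and 5 rose against DMSO, with NARS1, HARS2 and MARS2 added, and 23 fell and 6 rose against Neg1 and Neg2, with NARS1, MARS2, YARS2 and AIMP2 added.

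Cytosolic and mitochondrial enzymes differed in how widely they scattered around similar medians. Against DMSO, 11 of the 17 cytosolic genes fell and 1 rose, with a median of -0.23 and a range of -0.57 to 0.34. Of the 16 mitochondrial genes 7 fell and 3 rose, with a median of -0.22 and a range of -0.88 to 0.71. The SD over genes was 0.45 among mitochondrial and 0.22 among cytosolic enzymes. With counts scaled by transcript length, the mitochondrial median was -0.10 and the cytosolic median -0.22. Mitochondrial genes were also the less abundant class, with wider errors, and the part of abundance in their scatter was not tested. In the multi-synthetase complex 6 of 10 genes fell and 2 rose, and of the 11 cytosolic genes outside it 6 fell.

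**Figure D2:**
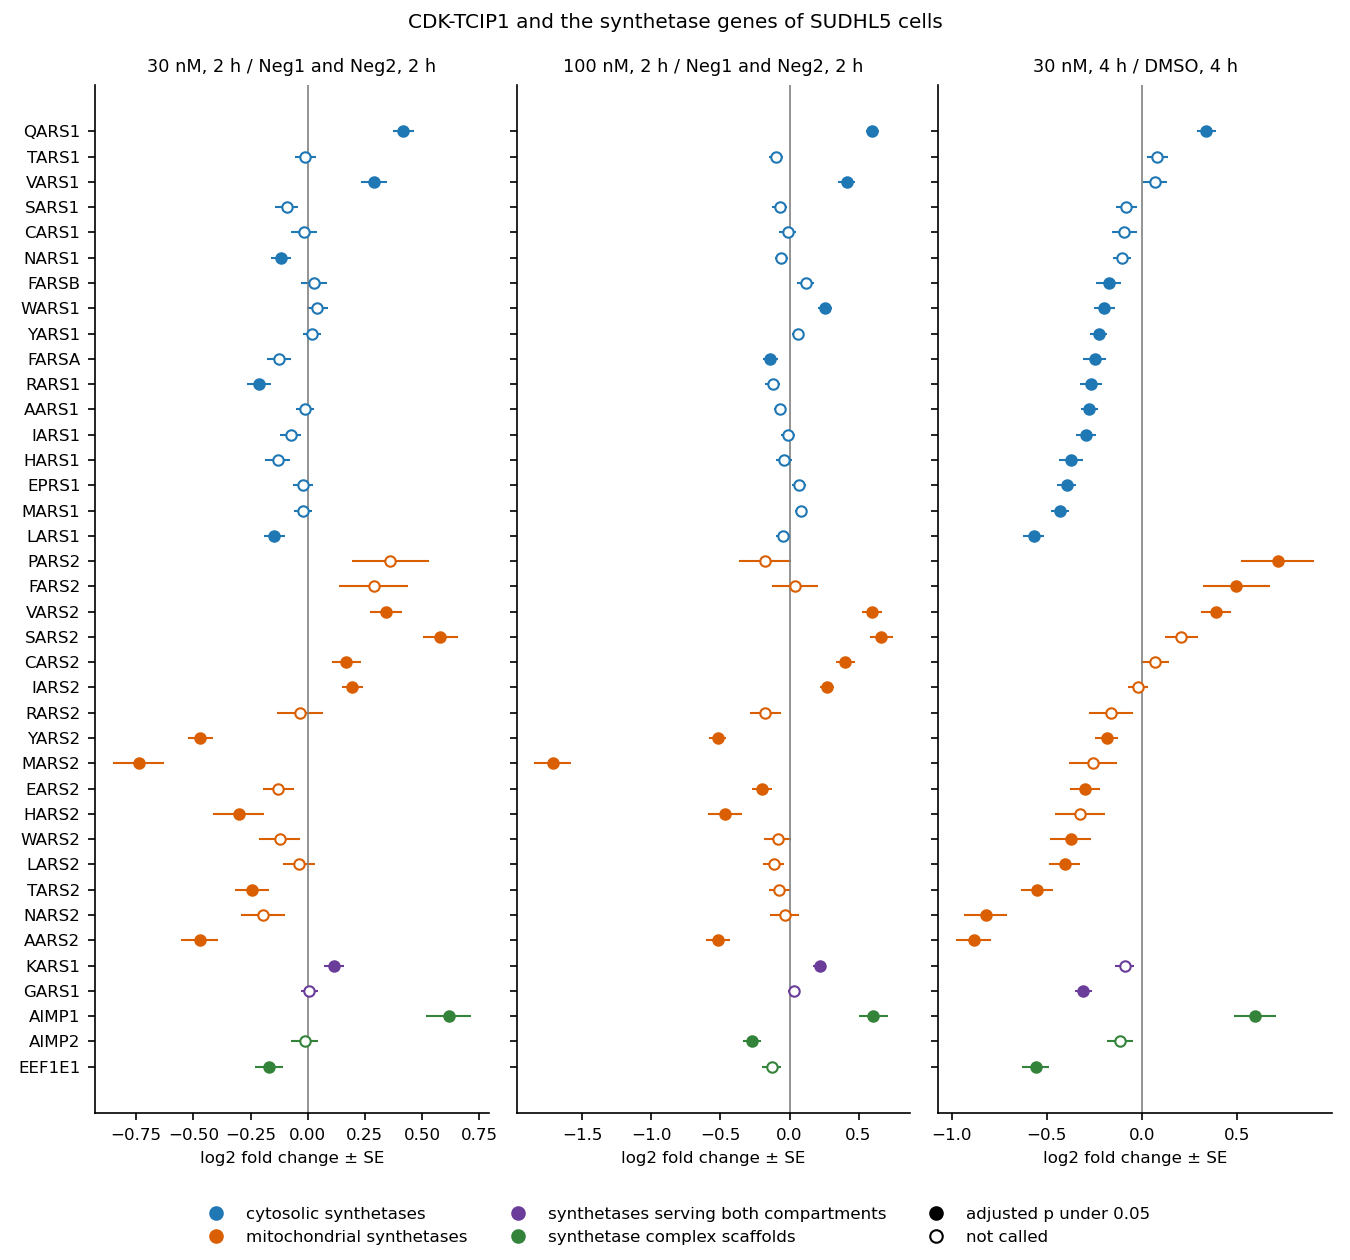
Log2 fold changes ± SE of the 38 genes in 3 comparisons, CDK-TCIP1 over its control, grouped by class and ordered by the change at 4 h; filled points had an adjusted p under 0.05. At 30 nM for 4 h the cytosolic points form a slope from 0.34 (QARS1) down to -0.57 (LARS1), while mitochondrial points reach from 0.71 (PARS2) to -0.88 (AARS2); at 100 nM for 2 h MARS2 lies far below the rest at -1.71.

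AARS2, the mitochondrial alanyl enzyme (chromosome 6, 44299654 to 44313326, minus strand, GRCh38, GENCODE 29), had the largest fall at 4 h. Its levels, as TMM-normalised CPM, were 12.8, 15.9 and 15.0 with CDK-TCIP1, against 26.6, 27.2 and 26.9 with DMSO. The control compounds stood at 29.5 and 32.4 CPM (Neg1) and 30.1 and 29.1 CPM (Neg2), so the CDK-TCIP1 libraries lay below all 7 others. The log2 fold change against DMSO was -0.88 ± 0.09 (SE; adjusted p = 3.63e-08).

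NARS2, the mitochondrial asparaginyl enzyme, had 18.7, 17.6 and 16.9 CPM with CDK-TCIP1 at 4 h, against 29.6, 29.5 and 35.1 CPM with DMSO (log2 fold change -0.82 ± 0.11, adjusted p = 2.3e-06). TARS2, the mitochondrial threonyl enzyme, had 25.0, 27.0 and 29.9 CPM, against 43.6, 38.0 and 38.2 CPM with DMSO (-0.55 ± 0.08, adjusted p = 1.13e-05). In both genes the groups did not overlap. LARS2, for leucine, fell less (48.3, 40.4 and 51.4 CPM with CDK-TCIP1, against 62.3, 58.7 and 64.6 CPM with DMSO; -0.41 ± 0.08, adjusted p = 0.000265). WARS2, for tryptophan, had 10.8, 11.3 and 11.4 CPM, against 13.5, 14.1 and 15.9 CPM with DMSO (-0.38 ± 0.11, adjusted p = 0.00651). Against Neg1 and Neg2 WARS2 changed by -0.27 (adjusted p = 0.0347), a call lost with DESeq2 (adjusted p = 0.0585) and in 6 of 7 fits that left out 1 library.

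Among the cytosolic enzymes the leucyl gene LARS1 (chromosome 5, 146113038 to 146182660, minus strand) fell most. It had 109, 114 and 117 CPM with CDK-TCIP1 at 4 h, against 162, 174 and 169 CPM with DMSO, and 166 to 174 CPM with the control compounds. The log2 fold change was -0.57 ± 0.05 (adjusted p = 6.19e-09). MARS1, the cytosolic methionyl enzyme, had 175, 183 and 173 CPM, against 239, 242 and 235 CPM with DMSO (-0.43 ± 0.05, adjusted p = 6.36e-08). Its groups too were well apart. The 3′ end of MARS1 shares 62 bases with DDIT3 on the opposite strand, and DDIT3 itself fell by 1.40. Transcripts not annotated as protein-coding made up 36.7 ± 3.28% of MARS1 TPM with CDK-TCIP1 and 18.7 ± 2.58% with DMSO (SD, n = 3 each). The shift was not particular to MARS1. That share was 41.1% with CDK-TCIP1 and 22.3% with DMSO for LARS1, and 30.2% and 10.2% for HARS1. For EARS2 it was 24.0% with CDK-TCIP1 and 44.3% with DMSO, but the control compounds at 4 h varied as well, with 24.6% (Neg1) and 39.1% (Neg2). Counted over protein-coding transcripts alone, MARS1 fell by 0.52.

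EPRS1 carries the glutamyl and prolyl enzymes in a single chain. Its levels were 257, 263 and 270 CPM with CDK-TCIP1 at 4 h, against 328, 348 and 364 CPM with DMSO (-0.40 ± 0.05, adjusted p = 9e-07). HARS1, the cytosolic histidyl enzyme, had 61.9, 62.1 and 59.9 CPM, against 83.8, 77.6 and 76.5 CPM with DMSO (-0.37 ± 0.06, adjusted p = 3.28e-05). HARS1 shares 437 exon bases with its mitochondrial neighbour HARS2 on the opposite strand, so the division of reads between them is uncertain. GARS1 had 302, 302 and 300 CPM with CDK-TCIP1, against 381, 367 and 370 CPM with DMSO (-0.31 ± 0.04, adjusted p = 5.01e-06). KARS1, which also serves both compartments, had 233, 231 and 240 CPM, against 259, 232 and 258 CPM with DMSO, and was not called (-0.09 ± 0.05, adjusted p = 0.164). Its groups overlapped.

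The other cytosolic falls were smaller, from -0.18 (FARSB) to -0.29 (IARS1), and took in AARS1, FARSA, RARS1, WARS1 and YARS1. The FARSB call was lost in 5 of 6 fits that left out 1 library, and those of RARS1 and WARS1 with length-scaled counts. NARS1, SARS1, CARS1, TARS1 and VARS1 were not called and lay between -0.11 and 0.08. Of the 8 genes with TGATGNAA in the start window, 5 fell (AARS1, IARS1, MARS1, GARS1 and YARS2), and CARS1, NARS1 and TARS1 were at -0.09, -0.11 and 0.08. Beside that, 20 of all 38 members, 11 of the 17 cytosolic genes and 32% of the well-expressed protein-coding genes fell. The YARS2 call was lost in 2 of 6 fits that left out 1 library.

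QARS1, the glutaminyl enzyme (chromosome 3, 49095932 to 49105135, minus strand), was the only cytosolic enzyme called higher at 4 h. It had 277, 277 and 270 CPM with CDK-TCIP1, against 223, 211 and 218 CPM with DMSO and 211 to 224 CPM with the control compounds. The log2 fold change was 0.34 ± 0.05 (adjusted p = 8.73e-06). Transcripts not annotated as protein-coding were 43.1 ± 5.32% of its TPM with CDK-TCIP1 and 36.3 ± 2.61% with DMSO, and the rise over protein-coding transcripts alone was 0.35.

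The mitochondrial rises at 4 h against DMSO were PARS2, FARS2 (phenylalanyl) and VARS2 (valyl). PARS2 had 12.7, 14.1 and 14.3 CPM with CDK-TCIP1, against 7.28, 7.88 and 10.0 CPM with DMSO (0.71 ± 0.19, adjusted p = 0.00432). VARS2 had 55.8, 61.9 and 54.4 CPM, against 47.3, 41.0 and 42.9 CPM with DMSO (0.39 ± 0.08, adjusted p = 0.000313). In both genes the lowest CDK-TCIP1 library lay above the highest DMSO library. FARS2 was low throughout, with 9.37, 7.91 and 8.05 CPM, against 5.68, 5.64 and 6.65 CPM with DMSO (0.50 ± 0.17, adjusted p = 0.0264). That call was lost with length-scaled counts (0.19, adjusted p = 0.54), without a filter, and without replicate 1 of CDK-TCIP1 or replicate 1 or 2 of DMSO. SARS2, for serine, was called higher at 4 h against Neg1 and Neg2 but not against DMSO. It had 27.4, 28.9 and 30.5 CPM with CDK-TCIP1, against 22.1 to 24.1 CPM with Neg1 and Neg2. With DMSO it had 26.0, 25.6 and 23.6 CPM.

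The 3 scaffolds of the multi-synthetase complex went separate ways. AIMP1 was called higher at every dose and time of CDK-TCIP1. At 4 h it had 55.1, 57.5 and 58.2 CPM, against 27.9, 40.4 and 45.3 CPM with DMSO (0.59 ± 0.11, adjusted p = 0.000133). Replicate 1 of DMSO was the low one, and without it the change was 0.40 (adjusted p = 0.00117). Against Neg1 and Neg2 at 4 h the change was 0.52, and with length-scaled counts that call was lost (adjusted p = 0.165). At 2 h the means were 50.9 CPM at 10 nM, 51.7 CPM at 30 nM and 51.3 CPM at 100 nM, with Neg1 at 31.4 CPM and Neg2 at 36.2 CPM. No difference between doses was called. EEF1E1 fell at 4 h, with 47.0, 41.5 and 42.2 CPM, against 62.2, 65.4 and 64.9 CPM with DMSO (-0.56 ± 0.07, adjusted p = 8.08e-07). A read-through gene shares 393 bases with it on the same strand.

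AIMP2 was not called at 4 h (52.5, 55.0 and 51.6 CPM with CDK-TCIP1, against 57.4, 53.9 and 61.4 CPM with DMSO; adjusted p = 0.191). At 2 h it had 66.5 and 69.2 CPM at 10 nM, 55.0, 61.6, 57.5 and 54.4 CPM at 30 nM, and 47.1, 50.4 and 45.5 CPM at 100 nM, with 55.2 to 61.6 CPM in the 4 libraries of the control compounds. The level thus lay above those controls at 10 nM and below them at 100 nM. The test called it lower at 100 nM (-0.27 ± 0.07, adjusted p = 0.00112) and higher at 10 nM (0.24), a call at 10 nM that was lost without the 2 libraries that stand apart (0.22, adjusted p = 0.063), while the one at 100 nM held (-0.30, adjusted p = 0.0047). AIMP2 shares 532 exon bases, 43.4% of its main transcript, with EIF2AK1 on the opposite strand, and the strand setting of the counting is not given in the sources used here. EIF2AK1 changed by 0.07 at 30 nM and 2 h.

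**Figure D3:**
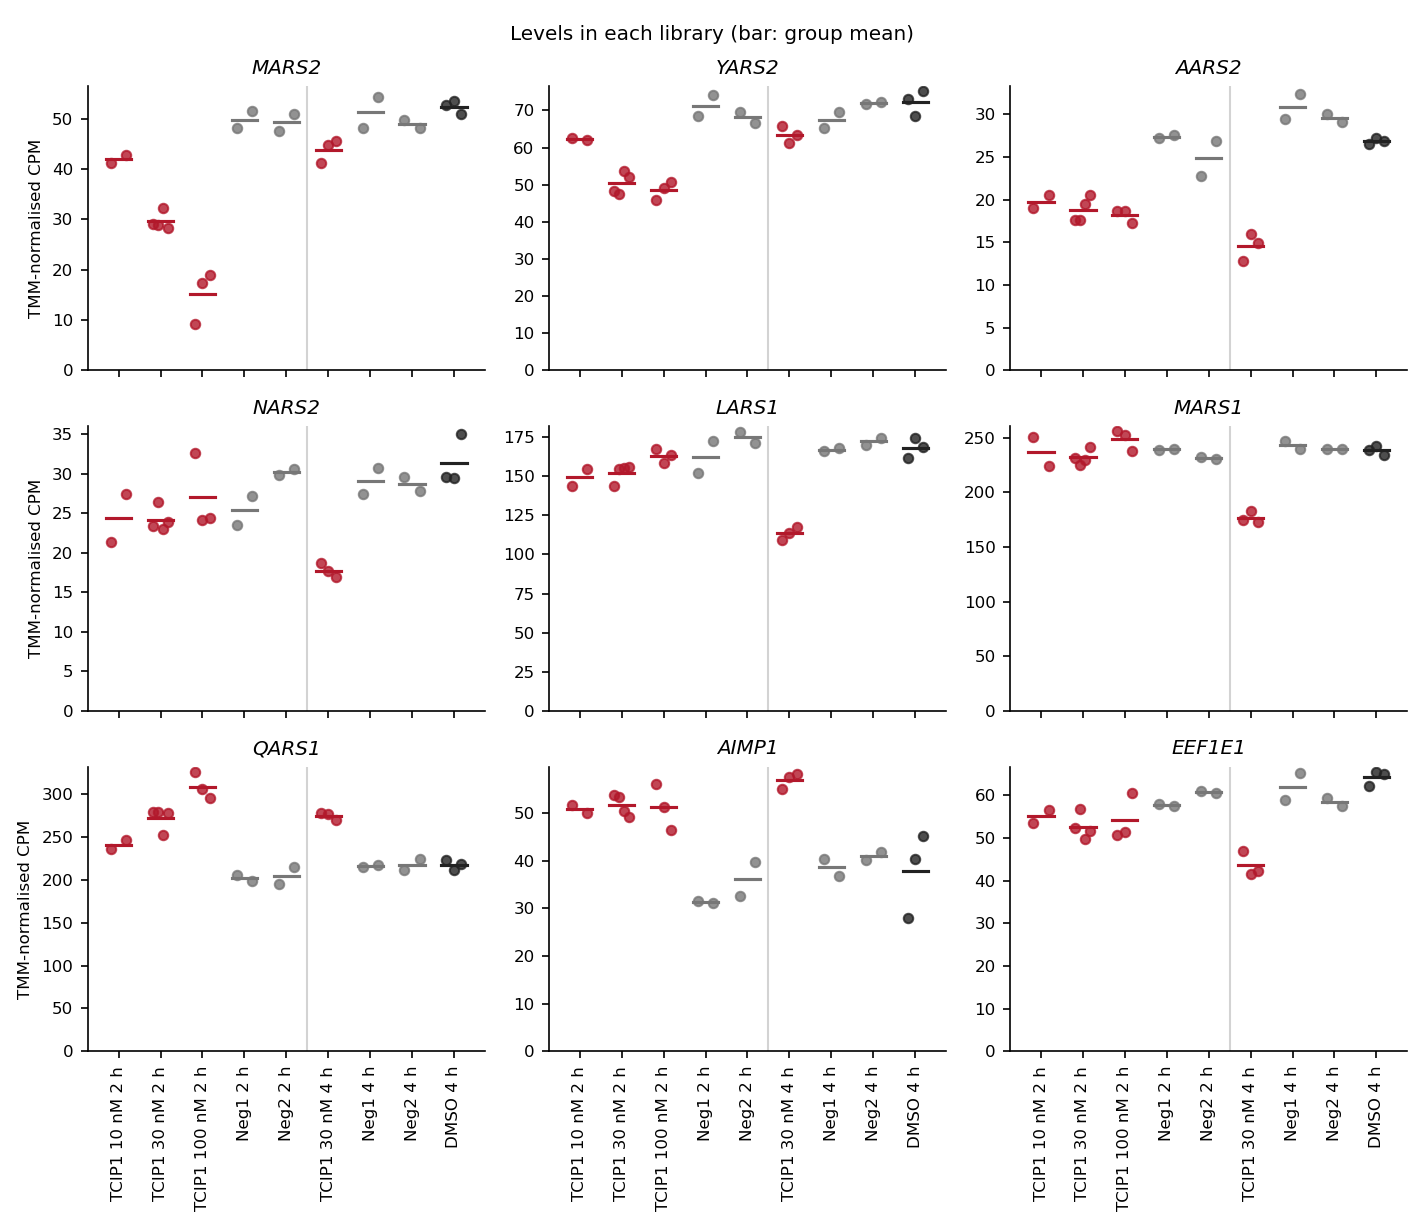
TMM-normalised CPM of 9 genes in all 23 libraries, with group means as bars; the grey line divides the 2 h from the 4 h groups, with CDK-TCIP1 in red, Neg1 and Neg2 in grey and DMSO in black. MARS2 steps down with dose at 2 h (41.9, 29.7 and 15.2 CPM) and stands at 43.9 CPM at 4 h, whereas LARS1, MARS1, NARS2 and EEF1E1 are lowest at 4 h.

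At 2 h the picture was mixed. With 30 nM CDK-TCIP1, 8 members rose and 9 fell against Neg1 and Neg2 (background 19.1% and 18% of all genes; 25.6% and 29.5% of the well-expressed protein-coding genes), and the median was -0.08 among mitochondrial and -0.02 among cytosolic genes. Of the 17 cytosolic genes 2 rose (QARS1 and VARS1) and 3 fell by no more than 0.21 (LARS1, NARS1 and RARS1). Of the 16 mitochondrial genes 4 rose and 5 fell. Many of these changes were small: 10 of the 17 calls held in every fit that left out 1 library, the others being those of LARS1, NARS1, CARS2, HARS2, TARS2, KARS1 and EEF1E1, and with length-scaled counts 5 rose and 4 fell. Without replicate 1 of 30 nM, 5 genes fell. With the 2 libraries that stand apart left out, 6 rose and 10 fell: the calls of CARS2, NARS1, KARS1 and EEF1E1 were lost, and FARSA, HARS1 and EARS2 were called lower.

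MARS2, the mitochondrial methionyl enzyme, gave the largest change of the family. It is a single-exon gene of 3.02 kb (chromosome 2, 197705369 to 197708387, plus strand), and its sequence before the start is printed above. At 2 h it had 41.2 and 42.7 CPM at 10 nM, 29.2, 28.8, 32.4 and 28.4 CPM at 30 nM, and 9.13, 17.4 and 19.0 CPM at 100 nM, with 47.6 to 51.4 CPM in the 4 libraries of the control compounds. No dose overlapped with the next. The log2 fold changes against Neg1 and Neg2 were -0.24 at 10 nM (not called, adjusted p = 0.273), -0.74 ± 0.11 at 30 nM (adjusted p = 1.01e-05) and -1.71 ± 0.13 at 100 nM (adjusted p = 1.51e-10). Without replicate 1 of 100 nM the last was -1.44. Without the 2 libraries that stand apart the fall at 10 nM was called as well (-0.27, adjusted p = 0.0321).

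At 4 h MARS2 was closer to its controls. It had 41.2, 44.8 and 45.6 CPM with 30 nM CDK-TCIP1, against 52.6, 53.5 and 51.0 CPM with DMSO, a difference that was not called (-0.26 ± 0.13, adjusted p = 0.116) although the groups did not overlap. It was called lower without the 2 libraries that stand apart, at -0.28 against DMSO (adjusted p = 0.00267) and at -0.20 against Neg1 and Neg2 (adjusted p = 0.016). The effect against the control compounds differed between 4 h and 2 h by 0.55 ± 0.16 (adjusted p = 0.0266; with length-scaled counts 0.55, adjusted p = 0.12).

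YARS2, the mitochondrial tyrosyl enzyme, had the same time course with a smaller fall. It had 62.6 and 62.1 CPM at 10 nM, 48.3, 47.4, 53.7 and 52.0 CPM at 30 nM and 46.0, 49.1 and 50.8 CPM at 100 nM, with 66.7 to 74.0 CPM in the control compounds at 2 h. Those controls lay above every CDK-TCIP1 library, and the 30 nM and 100 nM groups overlapped. The fold change at 30 nM was -0.47 ± 0.05 (adjusted p = 2.36e-07). At 4 h it had 65.8, 61.2 and 63.4 CPM, against 73.0, 68.4 and 75.1 CPM with DMSO (-0.19 ± 0.06, adjusted p = 0.0203), a call lost without replicate 3 of DMSO or replicate 2 of CDK-TCIP1, and with length-scaled counts the change was 0.00459. The effect differed between the times by 0.34 ± 0.08 (adjusted p = 0.00641).

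AARS2 was already low at 2 h, with little difference between doses. Its 9 libraries with CDK-TCIP1 at 2 h ran from 17.2 to 20.5 CPM, against 22.8 to 27.6 CPM in the control compounds (-0.47 ± 0.08 at 30 nM, adjusted p = 3.9e-05). SARS2, the mitochondrial seryl enzyme, rose to a like degree at each dose, with 31.9, 32.1, 33.2 and 31.4 CPM at 30 nM, against 23.05 and 20.91 CPM with Neg1 and 18.92 and 23.02 CPM with Neg2 (0.58 ± 0.08, adjusted p = 1.28e-06). A same-strand gene in the annotation holds 72.5% of its main transcript, so its share of reads is uncertain.

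On the CPM scale QARS1 rose with dose at 2 h. It had 236 and 246 CPM at 10 nM, 279, 280, 252 and 278 CPM at 30 nM and 325, 306 and 295 CPM at 100 nM, with 195 to 214 CPM in the control compounds at 2 h. The fold change was 0.42 ± 0.04 at 30 nM (adjusted p = 5.5e-08) and 0.60 ± 0.05 at 100 nM (adjusted p = 2.08e-10). On the deposited TPM, which carry no TMM scaling, QARS1 had means of 195, 213 and 201 at 10, 30 and 100 nM. Neg1 stood at 200 and Neg2 at 173. VARS2 followed the same order in CPM, with means of 46.1, 54.8 and 65.4 CPM at 10, 30 and 100 nM. Its TPM means were 17.7, 20.1 and 19.8, with Neg1 at 22.35 and Neg2 at 17.99. The TMM factors were 0.880, 0.929 and 0.939 at 100 nM, against 1.018 to 1.041 with Neg1 and Neg2 at 2 h. The part of this scaling in the gap between CPM and TPM was not tested. The VARS2 call at 30 nM was lost with length-scaled counts (0.20, adjusted p = 0.221).

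The doses share the control libraries, so they were also compared directly. At 100 nM, 9 members rose and 7 fell against Neg1 and Neg2 (background 22% and 22.9% of all genes, 30.3% and 36.2% of the well-expressed protein-coding genes). At 10 nM 5 rose and 2 fell (6.79% and 6.76% of all genes, 10.2% and 11.8% of the well-expressed ones). With length-scaled counts, 1 member was called at 10 nM. Without the 2 libraries that stand apart 9 rose and 8 fell at 100 nM, and at 10 nM 5 rose and 2 fell, where LARS1 (-0.16, adjusted p = 0.0859) and AIMP2 were no longer called and IARS2 and MARS2 were. Between 30 nM and 10 nM MARS2 and YARS2 were lower and 0 members higher by edgeR (background 1.82% and 0.8% of all genes, 3.58% and 0.994% of the well-expressed ones). Without the 2 libraries that stand apart 1 member was higher (QARS1) and 4 lower (RARS1, MARS2, YARS2 and AIMP2). Between 100 nM and 30 nM QARS1, WARS1, CARS2 and VARS2 were higher and MARS2 and AIMP2 lower (4.44% and 8.45% of all genes, 8.02% and 15.3% of the well-expressed ones). Leaving out the 2 libraries that stand apart removed the 4 higher calls (QARS1 0.13, adjusted p = 0.12) and kept MARS2 (-0.72, adjusted p = 9.31e-06) and AIMP2.

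The enzyme mRNAs were also compared between the times. With 30 nM CDK-TCIP1, 17 members were lower and 2 higher at 4 h than at 2 h (background 11.6% and 10.3% of all genes, 20.5% and 18.5% of the well-expressed ones), among them 9 of the 17 cytosolic genes, and the control compounds gave no called change over the same interval. The effect against the time-matched control compounds differed between 4 h and 2 h in 15 members, lower at 4 h in 13 and higher in 2 (background 6.37% and 5.61% of all genes, 11.6% and 10.5% of the well-expressed ones). The 13 were 7 cytosolic enzymes (AARS1, EPRS1, HARS1, LARS1, MARS1, WARS1 and YARS1), AARS2, LARS2, NARS2 and TARS2, and GARS1 and EEF1E1. LARS1 and MARS1 had the largest differences among the cytosolic enzymes, -0.43 ± 0.07 (adjusted p = 0.000162) and -0.43 ± 0.06 (adjusted p = 3.81e-05). MARS1 was at -0.02 at 2 h. With length-scaled counts neither difference was called, at -0.18 for LARS1 (adjusted p = 0.317) and -0.25 for MARS1 (adjusted p = 0.104). On that scale 4 of the 15 differences were called (AARS1, AARS2, GARS1 and YARS2). Without the 2 libraries that stand apart the counts were again 13 and 2, with IARS1 in place of LARS2, and between the times 18 members were lower and 3 higher.

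**Figure D4:**
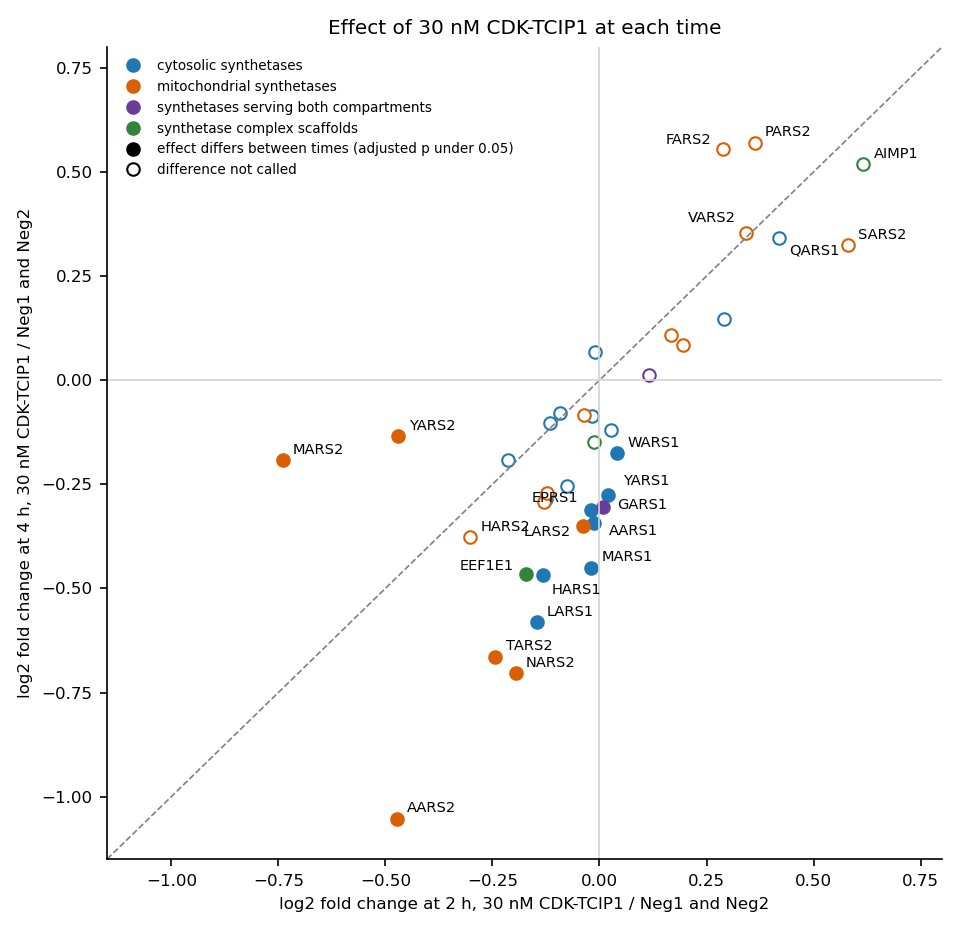
Log2 fold change of each member with 30 nM CDK-TCIP1 against Neg1 and Neg2 at 4 h (vertical) and at 2 h (horizontal); the dashed line marks equal effects and filled points had a called difference between the times. Of the filled points 13 lie below the line, and MARS2 and YARS2 lie above it.

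Each amino acid's cytosolic and mitochondrial enzymes were also set side by side as the log2 ratio of their CPM within a library, as a description with no test. Of 17 pairs, 11 had CDK-TCIP1 ratios at 4 h that did not overlap with any DMSO, Neg1 or Neg2 library at 4 h, with a lower ratio in 8 and a higher ratio in 3. The share of other gene pairs that part in this way was not computed. Against DMSO at 4 h, 32% of the well-expressed protein-coding genes fell and 22.2% rose, so the count cannot be read as particular to these pairs. EPRS1 and FARS2 also enter more than once. The higher ratios were those for alanine (AARS1/AARS2 4.04, 3.65 and 3.77 with CDK-TCIP1, against 3.20, 3.20 and 3.23 with DMSO), asparagine and threonine, whose mitochondrial genes all fell. The lowest shift was EPRS1/PARS2, with 4.34, 4.22 and 4.23, against 5.49, 5.46 and 5.18 with DMSO, where the cytosolic gene fell and the mitochondrial gene rose. For methionine the ratio turned over with time. MARS1/MARS2 was 2.99, 2.97, 2.83 and 3.09 with 30 nM at 2 h, against 2.18 to 2.31 in the control compounds at 2 h, and 2.09, 2.03 and 1.92 at 4 h, against 2.18, 2.18 and 2.20 with DMSO. All 2 h libraries with CDK-TCIP1 were above, and all 4 h libraries below, their controls.

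**Figure D5:**
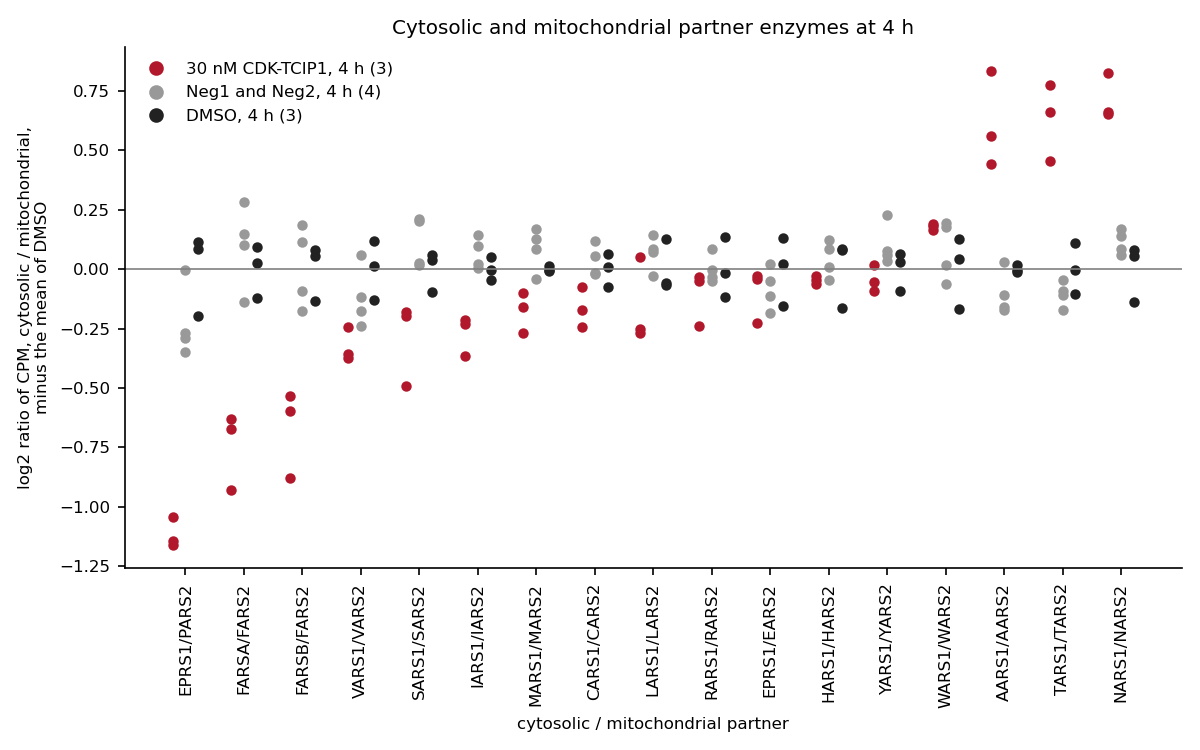
Log2 ratio of CPM of the cytosolic over the mitochondrial enzyme in each 4 h library, minus the DMSO mean, for 17 pairs; points are libraries of CDK-TCIP1 (red, 3), Neg1 and Neg2 (grey, 4) and DMSO (black, 3). The pairs for alanine, threonine and asparagine lie above their controls and EPRS1/PARS2 lies lowest, at a mean shift of -1.12.

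Other genes around the charging step were measured in the same libraries. ATF4 mRNA itself had 358, 359 and 353 CPM with CDK-TCIP1 at 4 h, against 400, 374 and 383 CPM with DMSO (-0.11 ± 0.06, adjusted p = 0.154). Its target DDIT3, a stress-response transcription factor, fell to 10.96, 12.69 and 10.68 CPM with CDK-TCIP1, against 27.52, 28.33 and 34.83 CPM with DMSO (-1.40 ± 0.12, adjusted p = 2.16e-09), and ASNS, asparagine synthetase, had 162, 158 and 150 CPM, against 200, 184 and 170 CPM (-0.24 ± 0.06, adjusted p = 0.00289). Of 32 genes of the ATF4 and amino acid response 19 fell and 2 rose at 4 h (median -0.27), beside 19.3% and 17.5% of all genes and 32% and 22.2% of the well-expressed protein-coding genes. The largest falls were DDIT3 and the lipoprotein receptor gene VLDLR (-1.16 ± 0.07), and the rises were SHMT2 of mitochondrial serine metabolism (0.43 ± 0.07) and PPP1R15B, a phosphatase subunit for eIF2 (0.22 ± 0.07). At 2 h 18 fell and 2 rose (median -0.25), beside 18% and 19.1% of all genes and 29.5% and 25.6% of the well-expressed ones, and PPP1R15B then fell by 0.54.

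MYC had 55.8, 62.4 and 60.2 CPM with CDK-TCIP1 at 4 h, against 138, 135 and 143 CPM with DMSO (-1.22 ± 0.09, adjusted p = 5.75e-11), and -0.97 ± 0.08 at 2 h. Of 40 tRNA processing genes 16 fell and 4 rose at 4 h (median -0.18), beside 32% and 22.2% of the well-expressed protein-coding genes. METTL1, a tRNA methyltransferase, fell by 1.52 and RPP25, a subunit of RNase P and MRP at 1.16 CPM or less in every library, by 2.64. Against Neg1 and Neg2 RPP25 was at -1.70 ± 0.77 and was not called (adjusted p = 0.087). CLP1 (0.62 ± 0.11) and ELAC1 (0.72 ± 0.16), both of tRNA end processing or splicing, rose. Of 23 genes of mitochondrial translation 7 fell and 5 rose (median 0.01), shares near those of the well-expressed genes. GTPBP3, a mitochondrial tRNA modifier, and MTIF2, the mitochondrial initiation factor, were both at -0.57, while MRRF (0.55) and MTRF1L (0.37), of ribosome recycling and termination, rose.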

How the data were processed

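RNA was measured in 23 poly(A) libraries of SUDHL5 cells, sequenced in paired ends per the labels' protocols. The submitters' processing notes name kallisto, DESeq2, cutadapt and FastQC, while their versions, the transcript set, genome build and strand are not stated in the labels. The authors deposited, per the file headers, kallisto's estimated counts, effective lengths and TPM for 227912 transcripts, and 205964 of these matched GENCODE 29 by identifier (unmatched transcripts held 1.16 to 1.27% of counts). Estimated counts were summed per gene and rounded. The deposited TPM were used for levels between genes, for transcript shares and for the length-scaled alternative.

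Genes were filtered with filterByExpr (17743 left), normalized by TMM and tested with the edgeR quasi-likelihood test (edgeR 4.0.16, R 4.3.3) in 1 fit of all 23 libraries with a coefficient per group (14 residual degrees of freedom, common biological coefficient of variation 0.0988). P-values were adjusted by Benjamini-Hochberg over all genes tested, with a threshold of 0.05. Fold changes are relative to the bulk of genes, so a shift of all mRNA would not show. CPM are scaled by TMM, except in the sums of cell type markers. TPM levels are given without it. Standard errors are |log2 fold change|/√F. Replicates differed by more than sampling noise (chi-square per degree of freedom 4.32 to 14.2). The fit was checked on simulated counts.

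Members, lists, tests and the naming rule were chosen with earlier results of these data known. Per-library values are given for the 10 largest falls and all 5 rises at 4 h against DMSO, the 3 largest changes each way at 30 nM and 2 h, EPRS1, GARS1, KARS1 and the scaffolds. Outside the family, ATF4, ASNS, DDIT3, MYC and the 2 largest changes each way of each list are named. Promoter windows are from RefSeq (GRCh38.p14); AARS2, LARS1, VARS1, VARS2 and YARS1 had no entry. Genes of the symbol rule beyond the 38 described are not reported here. Alternatives were DESeq2 1.42.0, RLE scaling, no filter, length-scaled counts, the groups compared alone, a replicate block, leaving out libraries and DMSO as the 2 h control. Counting only protein-coding transcripts was added after the data were seen.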

Additional observations from a re-analysis of the deposited data

Results flagged for a closer look

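The effect of 30 nM CDK-TCIP1 against Neg1 and Neg2 differed between 4 h and 2 h in 15 members by the interaction test in edgeR (log2 units, 4 h minus 2 h). It was lower at 4 h for AARS1 (-0.33), EPRS1 (-0.29), HARS1 (-0.34), LARS1 (-0.43), MARS1 (-0.43), WARS1 (-0.22), YARS1 (-0.30), AARS2 (-0.58), LARS2 (-0.31), NARS2 (-0.51), TARS2 (-0.42), EEF1E1 (-0.30) and GARS1 (-0.31). It was higher at 4 h for MARS2 (0.55) and YARS2 (0.34).

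Among the 4 libraries of 30 nM at 2 h, 1 library lay far from the other 3 in 5 of the 38 genes, where chance gives about 1 in 20. The gap as a share of the range was 0.888 for LARS1 (replicate 1 low, 143 CPM), 0.930 for QARS1 (replicate 3 low, 252 CPM), 0.877 for PARS2 (replicate 3 low, 8.32 CPM), 0.911 for RARS2 (replicate 2 low, 10.8 CPM) and 0.874 for VARS2 (replicate 4 high, 60.4 CPM). The library differed from gene to gene.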

How the results depend on the processing

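Of the 83 calls on single members in 4 comparisons (30 nM at 4 h against DMSO and against Neg1 and Neg2, and 30 and 100 nM at 2 h), 80 stayed called with DESeq2, 82 with RLE scaling, 76 without a filter, 77 with the groups compared alone, 74 over protein-coding transcripts, and 61 with length-scaled counts, where the fall of YARS2 at 4 h against DMSO became 0.00459. Length scaling moved counts: at 30 nM and 2 h to 5 higher and 4 lower, at 10 nM to 1, for 30 against 10 nM to 0, for 100 against 30 nM to 2, and for the change between the times to 4; the cause was not tested. For 30 against 10 nM the count was 1 over protein-coding transcripts, 5 with DESeq2 and 5 without the 2 libraries that stand apart, and for 100 against 30 nM it was 2 without them. Leaving out 1 library at a time gave 4 to 5 higher and 18 to 21 lower members at 4 h against DMSO, 5 to 7 and 17 to 20 against Neg1 and Neg2, 6 to 8 and 5 to 9 at 30 nM and 2 h, 9 to 10 and 5 to 7 at 100 nM, 3 to 7 called at 10 nM, 0 to 3 for 30 against 10 nM, 3 to 6 for 100 against 30 nM, 17 to 20 for 4 h against 2 h and 11 to 16 for the change between the times. The replicate block gave 20 lower and 5 higher members at 4 h against DMSO and lost 5 of the 83 calls. Same-numbered libraries of different groups showed no shared deviation (median correlation 0.00836 over 78 pairs, beside -0.00362 over 155 pairs with other numbers). No pairing by number was seen, but the check cannot exclude it. PARS2 and FARS2, at about 10 CPM or less with DMSO, had standard errors of 0.19 and 0.17 at 4 h, which limits what can be called there.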
